A study of Zea mays with 28 samples.

Results

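Maize leaves on which the grass-feeding mite Oligonychus pratensis, the Banks grass mite, had fed for 24 h were compared directly with leaves on which the generalist Tetranychus urticae, the two-spotted spider mite, had fed for the same time. The 8 leaves were chosen by their labels alone, 4 for each species, of 28 leaves in the whole series, and every gene in the count table was considered. All plants were the inbred line B73, 22 days old, and the 4th leaf was used, with a sticky wax barrier laid on each leaf to hold the mites in place. Each of these 8 leaves carried 200 adult female mites, and each leaf came from a different plant, so that 1 leaf of 1 plant was 1 replicate. The other leaves served as context: 4 for each species 2 h after infestation with 400 females, 4 wounded with sandpaper 2 h and 4 wounded 24 h before collection, and 4 controls that had the barrier alone. All leaves were collected at the same time of day. In a separate experiment of the paper on maize, T. urticae damaged a modestly but significantly larger leaf area than O. pratensis at 24 h. The part of damage in the species difference was not tested here. The O. pratensis strain was collected on maize in the field and kept on maize, whereas the T. urticae strain, W-GR, was kept on bean and then moved to maize before use, so that each species stands for 1 strain with its own rearing history.

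Spider mites pierce single leaf cells with a stylet and empty them, which leaves pale specks on the leaf. Grasses are known to answer feeding with jasmonate, a hormone that switches on defence genes, and with benzoxazinoids, defence compounds typical of the grasses. T. urticae feeds on a very wide range of plants, whereas O. pratensis lives mainly on grasses.

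Read counts per gene were summed to between 23610537 and 28493021 in the O. pratensis leaves and to between 20464837 and 23330904 in the T. urticae leaves. The deeper libraries were therefore those of O. pratensis, and levels are given throughout as CPM, counts per 1e6 reads counted, scaled for library size and composition. Genes that mark the mesophyll and the bundle sheath, the tissue layers that share photosynthesis in a maize leaf, were abundant in both groups. Their 3 mesophyll markers had mean levels of 2475 to 30653 CPM in O. pratensis leaves and 1972 to 22852 CPM in T. urticae leaves, and 8 markers of meristem, seed or pollen stayed below 1 CPM in each of the 8 leaves. A whole leaf section was sampled, so that fewer cells of a type and less RNA per cell cannot be told apart. The first principal component over the 500 most variable genes held 41.2% of the variance among the 8 leaves and placed the O. pratensis leaves between 12.9 and 15.8 and the T. urticae leaves between -22.4 and -8.5. No leaf lay among those of the other species on that axis.

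Leaves differed by mite species in 201 of the 22339 genes tested, which is 0.900% of them. A gene was called where edgeR's quasi-likelihood test gave an adjusted p of at most 0.01 and the levels differed at least 2-fold, a log2 difference of at least 1. There were 94 genes higher with O. pratensis (0.421%) and 107 lower (0.479%). The median log2 difference was 1.62 among the higher genes and -1.42 among the lower genes, and 29 of the higher and 17 of the lower genes differed at least 4-fold. The 4 O. pratensis leaves all lay above the 4 T. urticae leaves in 94 of the 94 higher genes, where 5.40% of all tested genes did so, and all lay below in 103 of the 107 lower genes, where 6.45% of all tested genes did so. These same leaves chose the genes, so that nothing is read from those counts. Fewer reads fell on the higher genes: their median average level was 0.88 on the log2 CPM scale, against 1.86 for the lower genes and 3.40 over all genes tested. The counts depended on single leaves, since leaving out any one of the 8 gave 46 to 87 higher genes and 58 to 117 lower genes. A test of whether the difference exceeds 2-fold, edgeR's glmTreat, called only GRMZM5G898274, which was lower.

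**Figure D1:**
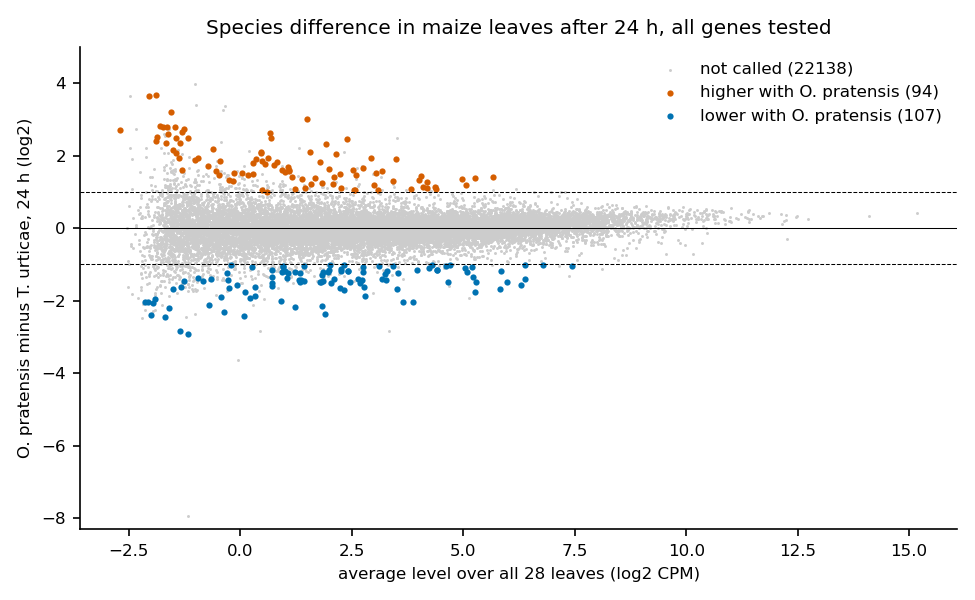
Average level of each tested gene over the 28 leaves (log2 CPM, horizontal) against the log2 difference between O. pratensis and T. urticae leaves at 24 h (vertical), 4 leaves each. The coloured points are the 94 genes called higher and the 107 called lower, and most of the 22339 genes lie near 0.

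Most of the lower genes lay on the same side of uninfested leaves with both species, and further away with T. urticae. Of the 107 genes lower with O. pratensis, 78 were called higher in O. pratensis leaves against controls (72.9%, where 12.3% of all genes were) and 106 were called higher in T. urticae leaves against controls (99.1%, where 15% of all genes were). The median log2 difference from controls over these 107 genes was 2.62 with O. pratensis, against 4.17 with T. urticae. The mean level lay above that of the controls with both species in 106 of them.

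The 94 higher genes were less uniform. In O. pratensis leaves 77 of them were called higher than in controls (81.9%) and 4 were called lower, where 0.824% of all genes were lower. In T. urticae leaves 34 were called higher (36.2%) and 10 were called lower, where 4.09% of all genes were lower. The mean level lay above that of the controls with both species in 71 genes and below it with both in 10, and in 13 genes it lay above the controls with O. pratensis and below them with T. urticae. The comparisons with controls share the mite leaves with the comparison that chose these genes, and both share the same 4 control leaves, so these values only place the levels.

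Averaged over the genes of a set, the 4 O. pratensis leaves lay between 2.00 and 2.51 on the log2 CPM scale for the 94 higher genes and the 4 T. urticae leaves between 0.39 and 0.85. For the 107 lower genes the O. pratensis leaves lay between 1.90 and 2.13 and the T. urticae leaves between 3.32 and 3.68. T. urticae replicate 4 was the T. urticae leaf nearest to the O. pratensis leaves for the higher genes. Control replicate 1 stood apart from the other controls for the higher genes, at 0.31 where the other 3 lay between -0.34 and -0.32, but not for the lower genes, where all 4 controls lay between -0.50 and -0.42.

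Among the genes with an average log2 CPM of at least 1 whose leaves did not overlap between the species, the 12 with the greatest positive difference were led by GRMZM2G059012. It had 10.3, 8.57, 11.9 and 19.1 CPM in the 4 O. pratensis leaves, 0.818, 1.37, 1.24 and 2.73 CPM in the 4 T. urticae leaves and 3.22, 0.889, 0.917 and 0.796 CPM in the 4 controls (log2 difference 3.00 ± 0.39 (SE), adjusted p = 3.72e-05, edgeR). Only the O. pratensis leaves stood above all the controls, and the T. urticae leaves lay in the range of the controls. The top of that range was control replicate 1 alone, at 3.22 CPM. The T. urticae leaves with 1.37, 1.24 and 2.73 CPM lay above the other controls. The name table gives no name for this gene. GRMZM2G174128 had 9.18, 9.72, 6.94 and 9.9 CPM with O. pratensis, 2.73, 3.72, 1.94 and 1.72 CPM in T. urticae leaves and 3.56, 1.61, 2.21 and 1.24 CPM in controls (log2 difference 1.82). GRMZM2G343570 had 5.9, 5.13, 6.25 and 7.28 CPM with O. pratensis, 2.41, 2.58, 1.24 and 1.38 CPM in T. urticae leaves and 3.6, 1.03, 1.58 and 1.06 CPM in controls (log2 difference 1.69). In these genes, too, the T. urticae leaves overlapped the controls while the O. pratensis leaves lay above all of them. Control replicate 1 was again the highest control, at 3.56 and 3.6 CPM. GRMZM2G343570 was called in 13 of 18 alternatives, and not without O. pratensis replicate 1 or 4 or T. urticae replicate 3 or 4.

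A second kind of gene lay above the controls with both species and higher with O. pratensis. GRMZM2G415529 had 35, 21.3, 39.6 and 42.8 CPM in O. pratensis leaves, 5.59, 6.99, 5.57 and 17.7 CPM in T. urticae leaves and 2.35, 1.33, 1.17 and 1.81 CPM in controls (log2 difference 1.95). GRMZM2G108847 had 15.9, 11.2, 21.7 and 22.9 CPM with O. pratensis, 4.04, 4.1, 3.59 and 5.65 CPM in T. urticae leaves and 1.25, 0.957, 0.333 and 0.707 CPM in controls (log2 difference 2.04 ± 0.26 (SE), adjusted p = 2.59e-05, edgeR). GRMZM2G140231 had 23.5, 16.4, 26.4 and 35.2 CPM with O. pratensis, 7.04, 7.18, 9.16 and 8.91 CPM in T. urticae leaves and 1.67, 1.16, 0.542 and 0.663 CPM in controls (log2 difference 1.65). All 4 leaves of each species lay above all 4 controls in these 3 genes. Wounding at 24 h also left GRMZM2G140231 at 7.13, 5.51, 9.71 and 8.82 CPM, overlapping the T. urticae leaves. GRMZM2G099092 had 7.06, 5.67, 14.3 and 21.9 CPM with O. pratensis, 1.68, 1.78, 1.73 and 4.53 CPM in T. urticae leaves, 5.27, 9.44, 14.7 and 10.1 CPM 24 h after wounding and at most 0.342 CPM in controls. Its call held in 13 of 18 alternatives, and not without O. pratensis replicate 4 or T. urticae replicate 2 or 3.

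GRMZM2G031441 went the other way relative to the controls. It had 10.6, 9.68, 6.17 and 6.63 CPM in O. pratensis leaves, 1.36, 4.06, 2.27 and 0.973 CPM in T. urticae leaves and 20.9, 17.4, 16.3 and 20.2 CPM in controls, so that its lowest level was with T. urticae (log2 difference between the species 1.92 ± 0.29 SE). GRMZM2G046848, GRMZM2G337768 and GRMZM2G000035 complete the group of 12 together with HAK11, with log2 differences of 2.10, 1.63 and 1.62. In GRMZM2G046848 the mean level was 10.9 ± 3.92 CPM with O. pratensis, against 2.54 ± 0.767 CPM with T. urticae (SD, n = 4 each). Of the 12 genes only HAK11 has a gene name in the table used.

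**Figure D2:**
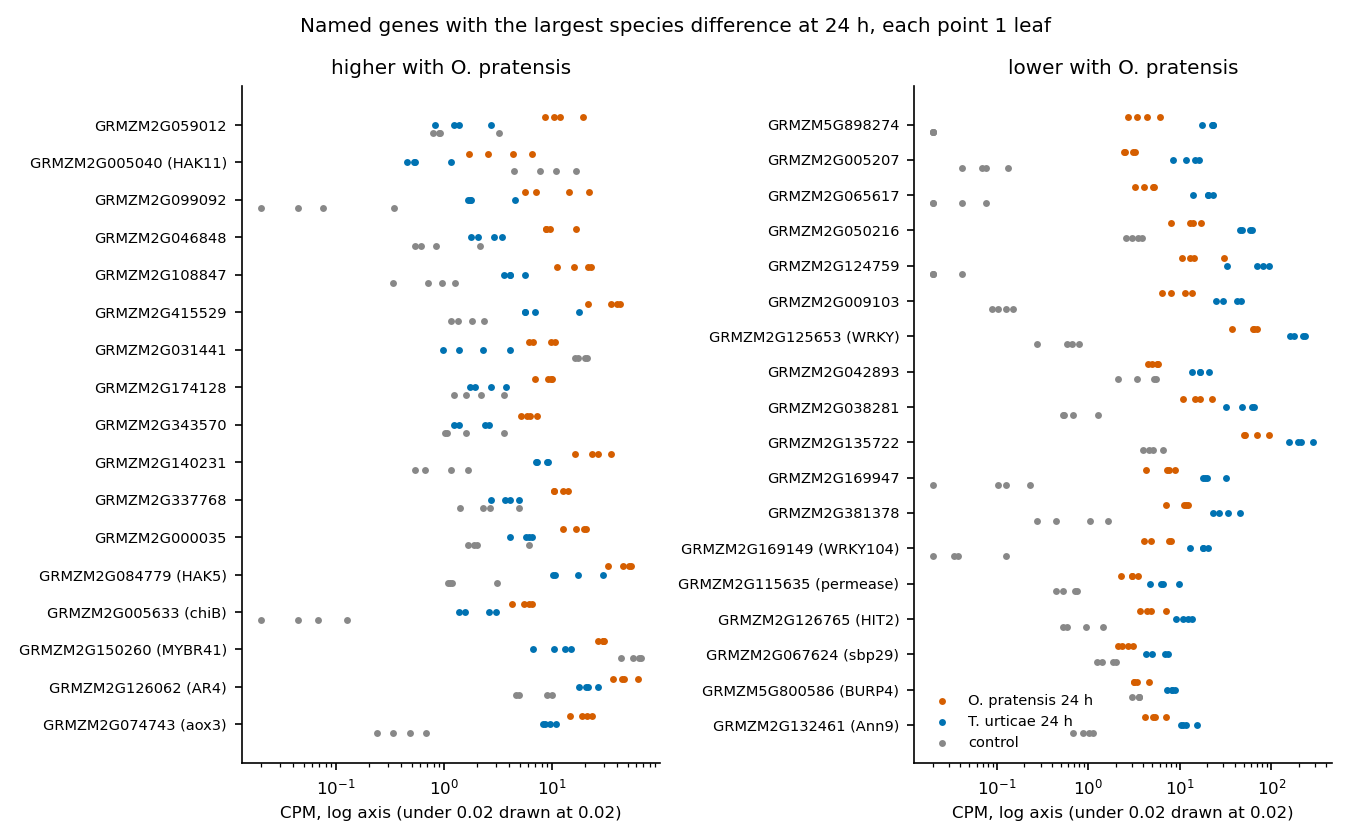
Level (CPM, logarithmic axis) of leading genes in each O. pratensis leaf, T. urticae leaf and control leaf, 1 point a leaf. The leaves of the 2 mite species do not overlap in any of the genes drawn, which was a condition for naming most of them.

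Potassium carriers of the HAK family, which move potassium ions into plant cells, gave 2 of the called genes. HAK5, known in Arabidopsis as a high-affinity carrier that roots make when potassium is scarce, had 45.8, 32.7, 51.6 and 54.2 CPM in O. pratensis leaves, 10.5, 17.4, 10.2 and 29.8 CPM in T. urticae leaves and 3.11, 1.13, 1.08 and 1.19 CPM in controls (log2 difference 1.44 ± 0.29 (SE), adjusted p = 0.00431, edgeR). Both species lay above the controls, and the highest T. urticae leaf, replicate 4, lay just under the lowest O. pratensis leaf. HAK11 had 1.69, 2.53, 6.55 and 4.31 CPM with O. pratensis, 0.454, 0.532, 0.537 and 1.16 CPM in T. urticae leaves and 7.8, 4.48, 16.8 and 10.9 CPM in controls (log2 difference 2.45 ± 0.55 (SE), adjusted p = 0.0088, edgeR), so that here the controls were highest and the T. urticae leaves lowest. These calls depended on the setting: over 18 alternatives HAK5 was called in 10 and HAK11 in 9, and HAK5 kept its call only without O. pratensis replicate 2 or T. urticae replicate 4, and HAK11 only without O. pratensis replicate 1, when 1 leaf was left out. HAK25 had 33.9, 33.2, 30.6 and 37.4 CPM with O. pratensis, 16.5, 18.5, 14.3 and 20.8 CPM in T. urticae leaves and 10.5, 7.25, 5.42 and 4.99 CPM in controls, a log2 difference of 0.95 that missed the 2-fold limit (adjusted p = 0.00588). Of 24 potassium transport genes tested, 2 were called, both higher, where 0.421% of all genes tested were, and the median log2 difference of the list was 0.04, against -0.01 over all genes.

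Chitinases cut chitin, the polymer of fungal walls and of the mite cuticle, and are made by many attacked plants. Of 6 chitinase genes tested, 1 was called, with the higher level in O. pratensis leaves, where 0.421% of all genes tested were, and the list median was 0.18. The called gene, chiB, had 6.13, 4.25, 6.52 and 5.47 CPM in O. pratensis leaves and 2.59, 1.37, 1.57 and 3.03 CPM in T. urticae leaves (log2 difference 1.38 ± 0.26 (SE), adjusted p = 0.00222, edgeR), and its controls were at or below 0.125 CPM. It was called in 14 of 18 alternatives, and not without T. urticae replicate 2 or 3. Wounded leaves at 24 h had more of it than either mite treatment, at 10, 10.6, 16.2 and 11.2 CPM. chiA had 16.2, 11.6, 19.5 and 17.6 CPM with O. pratensis, against 10.5, 6.72, 7.1 and 8.94 CPM with T. urticae, with a log2 difference of 0.97 just under the limit. Another chitinase, GRMZM2G129189, lay on the opposite side, with 23.2, 14.8, 16 and 20.2 CPM in O. pratensis leaves and 31.9, 41.2, 29.1 and 30.4 CPM in T. urticae leaves (log2 difference -0.84, adjusted p = 0.0123, not called). The chitinase chiI had a mean of 185 ± 29.8 CPM with O. pratensis, against 170.0 ± 28.3 CPM with T. urticae (SD, n = 4 each), and the means lay within the spread of the leaves.

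Pathogenesis-related proteins are secreted defence proteins, and edgeR and DESeq2 each called 0 of the 5 genes tested, of which 2 had a positive difference at an unadjusted p under 0.05, where 9.56% of all genes tested did. PR-1, often read as a sign of salicylic acid responses, had 108, 74.2, 162 and 211 CPM with O. pratensis, 33, 62, 47.2 and 68.3 CPM in T. urticae leaves and 4.24, 2.53, 0.583 and 1.99 CPM in controls. Its leaves did not overlap between the species, but its log2 difference of 1.40 ± 0.41 (SE) had an adjusted p of 0.0471. The list median was 0.42.

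The other 6 called genes with names and positive differences were AR4, aox3, HK1a2, an2, MYBR41 and adf1 (GRMZM2G117603), an actin depolymerizing factor gene with few reads that is named here after its values were seen (log2 difference 1.47, adjusted p = 0.00671, edgeR). The gene aox3 encodes an alternative oxidase, a mitochondrial enzyme that lets respiration bypass part of the electron transport chain. It had 23.3, 14.6, 21 and 18.8 CPM in O. pratensis leaves, 8.27, 9.53, 8.54 and 10.9 CPM in T. urticae leaves and 0.682, 0.239, 0.333 and 0.486 CPM in controls (log2 difference 1.06 ± 0.24 (SE), adjusted p = 0.00946, edgeR), and was called in 9 of 18 alternatives. HK1a2, a histidine kinase receptor of the growth hormone cytokinin, had 2.12, 1.75, 1.73 and 2.04 CPM with O. pratensis, against 0.545, 0.646, 0.784 and 1.05 CPM with T. urticae (log2 difference 1.33), and was called in 11 of 18 alternatives. The gene an2 encodes an ent-copalyl diphosphate synthase, which starts the route to maize defence diterpenoids. Few reads fell on it in any leaf, with 1.03, 0.472, 1.31 and 1.85 CPM in O. pratensis leaves and 0.182, 0.228, 0.33 and 0.337 CPM in T. urticae leaves (log2 difference 2.07, adjusted p = 0.00914), and the gene was called in 7 of 17 alternatives. When 1 leaf was left out, aox3 and an2 kept their calls only without O. pratensis replicate 2. The gene an2 was the only called gene of 15 terpene synthesis genes tested, where 0.421% of all genes tested were called higher. Their list median was 0.10.

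MYBR41, a MYB-related transcription factor, lay below the controls with both mites. Its level was 26.7, 29.7, 30 and 29.6 CPM in O. pratensis leaves, 10.5, 15, 13.1 and 6.7 CPM in T. urticae leaves and 66.2, 43.5, 56.3 and 64 CPM in controls (log2 difference 1.36 ± 0.21 (SE), adjusted p = 0.000302 between the species, edgeR). The 4 O. pratensis leaves were close to each other and lay between the other groups. Leaves wounded 24 h earlier had 26.9, 31.5, 19 and 21.2 CPM, a range that holds the O. pratensis leaves. AR4 had 46.6, 36.8, 44.1 and 62.2 CPM with O. pratensis, 20.6, 21.5, 17.9 and 26.6 CPM in T. urticae leaves and 10, 8.96, 4.96 and 4.6 CPM in controls.

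The greatest negative difference among the named genes was in GRMZM5G898274, for which no control leaf had a read. It had 6.03, 3.41, 2.7 and 4.35 CPM in O. pratensis leaves and 22.4, 22.9, 22.9 and 17.3 CPM in T. urticae leaves (log2 difference -2.37 ± 0.24 (SE), adjusted p = 5.69e-06, edgeR). It was the only gene of those named that was called under all 18 alternatives. Wounded leaves had at most 0.186 CPM of it at 24 h. GRMZM2G005207 had 3.05, 2.53, 2.47 and 3.24 CPM with O. pratensis, 11.6, 14.5, 16.1 and 8.46 CPM in T. urticae leaves and at most 0.133 CPM in controls (log2 difference -2.16). GRMZM2G065617 had 5.24, 4.05, 3.24 and 5.12 CPM with O. pratensis, 14.1, 23, 20.5 and 20.2 CPM in T. urticae leaves and at most 0.0758 CPM in controls (log2 difference -2.14). These genes were close to silent in uninfested leaves and were present with both mites, at the lower level with O. pratensis.

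GRMZM2G124759 had 14.3, 13, 30.2 and 10.6 CPM in O. pratensis leaves and 32.6, 69.1, 81.5 and 93.8 CPM in T. urticae leaves (log2 difference -2.03 ± 0.28 SE), and only 1 control leaf had it, at 0.0417 CPM. Its highest O. pratensis leaf, replicate 3, came close to its lowest T. urticae leaf, replicate 1. GRMZM2G009103 had 7.96, 6.45, 13.5 and 11.3 CPM with O. pratensis, against 25.1, 41.6, 46.9 and 29.8 CPM with T. urticae. GRMZM2G050216 had 17.2, 13.9, 7.94 and 13.1 CPM with O. pratensis, 58.5, 61.1, 48 and 45.5 CPM in T. urticae leaves and 3.83, 2.56, 3.0 and 3.49 CPM in controls. In GRMZM2G042893 the O. pratensis leaves overlapped the controls, at 4.48, 4.96, 5.74 and 5.59 CPM against 5.46, 2.12, 5.21 and 3.36 CPM, while the T. urticae leaves had 16.8, 16.6, 20.8 and 13.7 CPM (log2 difference between the species -1.71). GRMZM2G135722, called in 13 of 18 alternatives, GRMZM2G169947 and GRMZM2G381378 had log2 differences of -1.67, -1.65 and -1.62.

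WRKY proteins are plant transcription factors with a known place in the response to attack. WRKY53 had 69.5, 36.7, 65.3 and 63.7 CPM in O. pratensis leaves, 176, 224, 235 and 160.1 CPM in T. urticae leaves and 0.796, 0.274, 0.583 and 0.663 CPM in controls (log2 difference -1.76 ± 0.27 (SE), adjusted p = 0.00033, edgeR). WRKY104 had 8.02, 4.08, 4.9 and 7.55 CPM with O. pratensis, 17.7, 18.1, 20.1 and 12.9 CPM in T. urticae leaves and at most 0.125 CPM in controls (log2 difference -1.48 ± 0.25 (SE), adjusted p = 0.000885, edgeR). Both were present with either mite, more so with T. urticae, and both were called in 17 of 18 alternatives. They were the called genes of 17 WRKY genes tested, where 0.479% of all genes tested were lower, and the list's median log2 difference was -0.08. Among 44 MYB genes 1 was called higher, MYBR41, and 1 lower, MYB166, where 0.421% and 0.479% of all genes tested were. The list median was 0.09. MYB166 had 1.49, 1.15, 1.5 and 1.7 CPM with O. pratensis, against 2.59, 2.92, 4.17 and 2.06 CPM with T. urticae (log2 difference -1.01, close to the 2-fold limit), and was called in 6 of 18 alternatives.

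Phenylpropanoids are lignin precursors and defence phenolics made from phenylalanine. GRMZM2G063917, a phenylalanine ammonia-lyase gene whose enzyme makes the first step, had 66.5, 55.4, 71.7 and 61.7 CPM in O. pratensis leaves, 136, 159, 116 and 133 CPM in T. urticae leaves and 1.93, 3.59, 2.0 and 1.94 CPM in controls (log2 difference -1.09 ± 0.17 (SE), adjusted p = 0.000404, edgeR). It was far above the controls with both mites, with no overlap between the species. Maize has several similar copies of this enzyme, and reads that matched more than 1 place were not counted, so that the level of a single copy is uncertain. Upstream in the pathway, the chorismate mutase gene CM2 had 42, 45.8, 62.2 and 52.6 CPM with O. pratensis, against 71.1, 96.5, 105 and 90.6 CPM with T. urticae. The putative prephenate dehydratase gene GRMZM2G125923 had 27.3, 21.7, 26.6 and 24.2 CPM with O. pratensis, against 38.3, 48.2, 43.8 and 44 CPM with T. urticae. Their log2 differences of -0.84 and -0.80 did not reach 2-fold. Of 15 phenylpropanoid genes tested, 1 was called, lower with O. pratensis, where 0.479% of all genes tested were. Of the 15, 11 had a negative difference, and the list median was -0.34.

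Cell wall genes were the list with the most negative median among those with at least 10 genes. None of its 19 tested genes was called by edgeR or DESeq2, but 18 had a negative difference, 15 of them at an unadjusted p under 0.05 and 9 with an adjusted p of at most 0.05, and the median log2 difference was -0.56. Over all genes tested, 51.5% had a negative difference, 9.11% were lower at that unadjusted p and 2.45% at that adjusted p. Of these 9, 8 were cellulose synthase (CesA) genes, which encode the subunits that spin cellulose at the cell surface. CesA-7 had 137, 187, 86.8 and 133 CPM in O. pratensis leaves, 265, 229, 247 and 254 CPM in T. urticae leaves and 114, 181, 148 and 186 CPM in controls (log2 difference -0.87 ± 0.22 SE). CesA-3 had 9.09, 9.72, 10.6 and 9.55 CPM with O. pratensis, 13.2, 13.1, 14 and 15.6 CPM in T. urticae leaves and 7.8, 7.73, 6.92 and 7.07 CPM in controls (log2 difference -0.52 ± 0.08 (SE), adjusted p = 0.000512, edgeR). CesA-5 had 30.9, 30.6, 38.7 and 31.6 CPM with O. pratensis, 42.9, 50.9, 46.7 and 53.5 CPM in T. urticae leaves and 20.4, 26.6, 20.7 and 20.4 CPM in controls (log2 difference -0.56 ± 0.09 (SE), adjusted p = 0.000849, edgeR). In CesA-7 the O. pratensis leaves overlapped the controls and the T. urticae leaves lay above both. In CesA-3 and CesA-5 both species lay above the controls. Differences for CesA-1, CesA-2, CesA-4, CesA-8 and CesA-9 were -0.53, -0.72, -0.77, -0.73 and -0.88 on the log2 scale, and that of CesA-6 was -0.23. The exception in sign was xet1, a xyloglucan endotransglycosylase that cuts and rejoins wall polymers, at 0.69 (adjusted p = 0.0541).

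Some called genes without a maize name are paired with an Arabidopsis gene in the part of the study's table of matches used here, which covers 9 of the 201. GRMZM2G038281 is paired with AT5G63810, a beta-galactosidase, an enzyme that trims galactose from wall polymers. It had 14.7, 10.9, 22.6 and 16.6 CPM in O. pratensis leaves, 32.3, 47.5, 65.5 and 61.1 CPM in T. urticae leaves and 0.682, 1.27, 0.542 and 0.53 CPM in controls (log2 difference -1.67 ± 0.25 (SE), adjusted p = 0.000205, edgeR). GRMZM2G009282 is paired with AT1G68560, an alpha-xylosidase of the cell wall in Arabidopsis, and had 0.398, 0.776, 0.501 and 0.809 CPM with O. pratensis, against 2.82, 1.44, 1.61 and 1.61 CPM with T. urticae. GRMZM2G015804, paired with AT1G26560, a beta-glucosidase, had 27.2, 27.7, 43.2 and 38.9 CPM with O. pratensis, against 53, 68.1, 81.5 and 77.9 CPM with T. urticae. These 3 genes were picked from the 9 after their values were seen. Of the other 6, GRMZM2G024099, GRMZM2G028521 and GRMZM2G044004 were called lower, with log2 differences of -1.30, -1.02 and -1.51, and GRMZM2G011526, GRMZM2G041068 and AC233888.1_FG001 were called higher, with 1.05, 1.24 and 1.52.

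The remaining named genes with negative differences had modest levels. Ann9, an annexin, a protein that binds membranes in the presence of calcium, had 5.07, 7.05, 5.32 and 4.12 CPM in O. pratensis leaves, 10.3, 11.6, 15.3 and 10.8 CPM in T. urticae leaves and 1.14, 0.684, 0.875 and 1.02 CPM in controls. BURP4, of the plant BURP-domain family, had 3.15, 4.56, 3.16 and 3.39 CPM with O. pratensis, 7.32, 8.28, 8.79 and 8.2 CPM in T. urticae leaves and 3.56, 2.97, 3.54 and 3.54 CPM in controls, so that only the T. urticae leaves stood apart from the controls. Its level in leaves wounded 24 h before was higher than in any of these, at 13.7, 14.7, 12.2 and 13.1 CPM. sbp29, a squamosa-promoter binding transcription factor, had 2.35, 2.09, 3.08 and 2.7 CPM with O. pratensis, against 4.27, 4.94, 7.39 and 6.81 CPM with T. urticae. The gene listed as permease, GRMZM2G115635, and HIT2 had log2 differences of -1.21 each. These 2 genes and Ann9 were called in 11 or 12 of 18 alternatives, and none of the 3 without O. pratensis replicate 1 or 4 or T. urticae replicate 3.

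**Figure D3:**
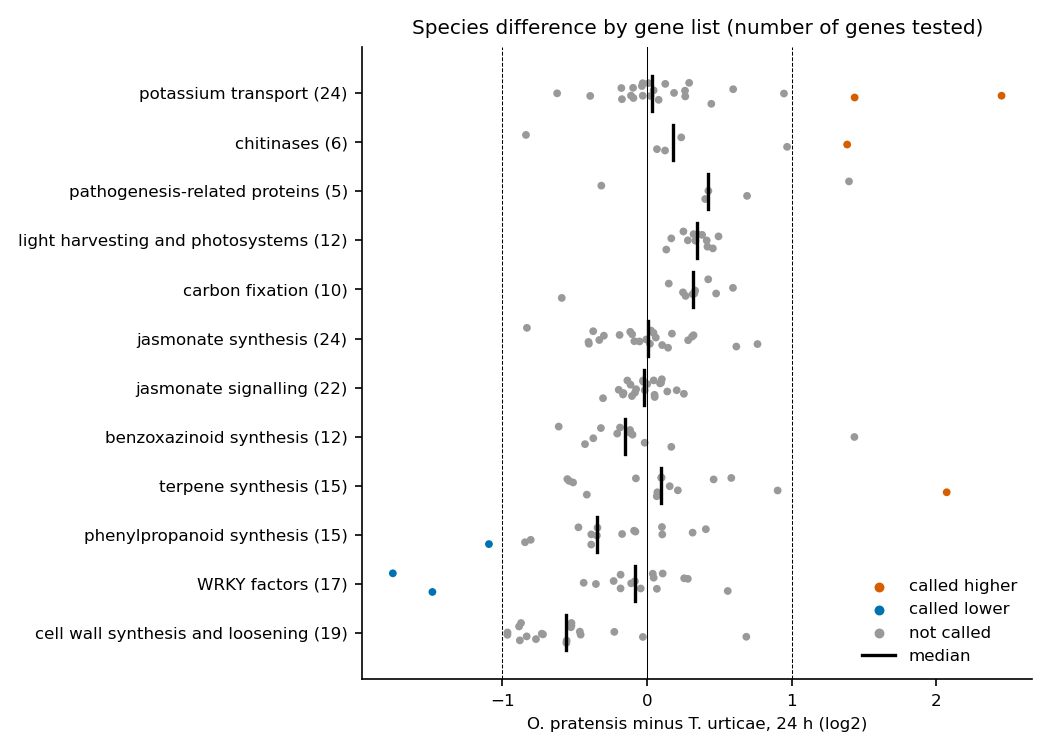
Log2 difference between O. pratensis and T. urticae leaves at 24 h for the tested genes of the gene lists, 1 point a gene, with the median of each list; called genes are marked. The cell wall list has a median of -0.56 and the photosystem list 0.34, and the medians of both jasmonate lists lie close to 0.

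No photosynthesis gene was called. All 12 light harvesting and photosystem genes tested had a positive difference, with a median of 0.34 on the log2 scale, and 4 of them had an unadjusted p under 0.05 but none an adjusted p of at most 0.05 (edgeR). Of 10 carbon fixation genes, 9 had a positive difference, 5 of them at an unadjusted p under 0.05, and the median was 0.32. Over all genes tested, 48.5% had a positive difference, 9.56% were higher at that unadjusted p and 2.28% at that adjusted p. DESeq2 called 0 genes of either list. Averaged over the photosystem list, the O. pratensis leaves lay between 9.15 and 9.45 on the log2 CPM scale. The T. urticae leaves lay between 8.20 and 9.41, and the species overlapped in each photosystem gene. Of the 10 carbon fixation genes, 1 had all O. pratensis leaves above the T. urticae leaves and 1 had all below. Over all tested genes these shares were 5.40% and 6.45%. Ppdk1, pyruvate phosphate dikinase of the carbon-concentrating cycle, had 31356, 33078, 26968 and 31208 CPM in O. pratensis leaves, 26705, 22826, 23684 and 18192 CPM in T. urticae leaves and 44290.0, 39947, 56388 and 51503 CPM in controls (log2 difference 0.42 ± 0.12 (SE), adjusted p = 0.0453, edgeR). The species did not overlap, and both lay below the controls. Over the photosystem list the median log2 difference from controls was -0.80 with O. pratensis, against -1.08 with T. urticae. The exception among the carbon fixation genes was a carbonic anhydrase, GRMZM2G087259, at 52.9 ± 8.67 CPM with O. pratensis, against 79.6 ± 11.2 CPM with T. urticae (SD, n = 4 each).

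No gene of the jasmonate and benzoxazinoid lists was called at 24 h by edgeR or DESeq2. The 24 jasmonate synthesis genes tested had a median log2 difference of 0.01, and at an unadjusted p under 0.05 there was 1 positive and 2 were negative. The 22 jasmonate signalling genes, most of them TIFY or JAZ genes that encode repressors of jasmonate responses, had a median of -0.02, with 1 positive difference at that p. Of 12 benzoxazinoid genes 10 had a negative difference, where 51.5% of all genes tested did, 1 gene in each direction had an unadjusted p under 0.05, and the median was -0.15. The gene bx1, whose enzyme makes the indole that starts the pathway, had 38.1, 211, 71.7 and 25 CPM in O. pratensis leaves and 69.3, 196, 150.5 and 113 CPM in T. urticae leaves. The leaves of each species varied several-fold here and overlapped (log2 difference -0.61 ± 0.64 SE). For 2 late genes of the pathway the means were close together. GRMZM2G311036 (BX10) had 127 ± 23.1 CPM with O. pratensis, against 113 ± 26.8 CPM with T. urticae (SD, n = 4 each). GRMZM2G336824 (BX11) had 98.6 ± 14.9 CPM with O. pratensis, against 107 ± 22.3 CPM with T. urticae (SD, n = 4 each). BX14, which encodes an enzyme of the last steps, had 12.8, 9.62, 12.1 and 11.8 CPM with O. pratensis, 2.36, 4.18, 1.86 and 8.61 CPM in T. urticae leaves and no read in controls (log2 difference 1.43 ± 0.42 SE, adjusted p = 0.0522). Its leaves did not overlap, but the T. urticae leaves ranged from 1.86 to 8.61 CPM, and the gene was not called. AC148152.3_FG005, another benzoxazinoid gene with no read in controls, had 2.91 ± 2.22 CPM with O. pratensis, against 2.95 ± 1.43 CPM with T. urticae (SD, n = 4 each). Its leaves overlapped between the species (log2 difference -0.02).

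Over 36 gene lists with 688 tested genes in all, 6 genes were called higher and 4 lower, which is 1.45% of them, where 0.900% of all genes tested were called. In the other 23 lists the medians lay between -0.78 for laccases, with 7 tested genes, and 0.35 for microRNA precursors, with 21. Among their genes that did not pass, PP2C24, a protein phosphatase of the abscisic acid pathway, had 94.7, 75.3, 139 and 119 CPM in O. pratensis leaves and 167, 196, 241 and 221 CPM in T. urticae leaves (log2 difference -0.94). CKX10, a cytokinin oxidase, had 139, 121, 167 and 169 CPM with O. pratensis, against 101, 87.3, 69.6 and 63.1 CPM with T. urticae (log2 difference 0.89).

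The same 2 species were also compared 2 h after infestation, on 8 other leaves and with more mites on each. There 152 genes were called higher with O. pratensis (0.680% of those tested) and 0 were called lower by edgeR. In the lower direction 226 genes had an unadjusted p under 0.05, and DESeq2 called 1. The count of 152 depended on the setting: it was 1 with only these 8 leaves fitted, and 35 to 223 when 1 of them was left out, moving most for O. pratensis replicates 2 (58) and 4 (89) and T. urticae replicates 1 (45) and 3 (35). Of the 94 genes higher at 24 h, 66 had a positive difference at 2 h (70.2%), and of the 107 genes lower at 24 h, 78 also had a positive difference at 2 h (72.9%), where 50.3% of all tested genes did. The median log2 differences at 2 h were 0.22 for the higher genes and 0.23 for the lower genes, against 0.00 over all genes. The set lower at 24 h therefore did not have its 24 h sign at 2 h. Only 1 gene of each set was called at 2 h.

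Those were aox3 and the phenylalanine ammonia-lyase gene GRMZM2G063917. At 2 h aox3 had 2.67, 5.91, 3.5 and 4.77 CPM in O. pratensis leaves and 0.508, 0.89, 1.03 and 1.16 CPM in T. urticae leaves (log2 difference 2.20, adjusted p = 0.00033, edgeR), the same sign as at 24 h. GRMZM2G063917 had 6.49, 8.41, 7.62 and 6.65 CPM with O. pratensis at 2 h, against 2.63, 3.92, 3.89 and 4.02 CPM with T. urticae (log2 difference 1.00, adjusted p = 0.00761, edgeR). Its sign was thus positive at 2 h and negative at 24 h, and the change between the times was -2.09 ± 0.27 (SE, adjusted p = 0.000137, edgeR).

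**Figure D4:**
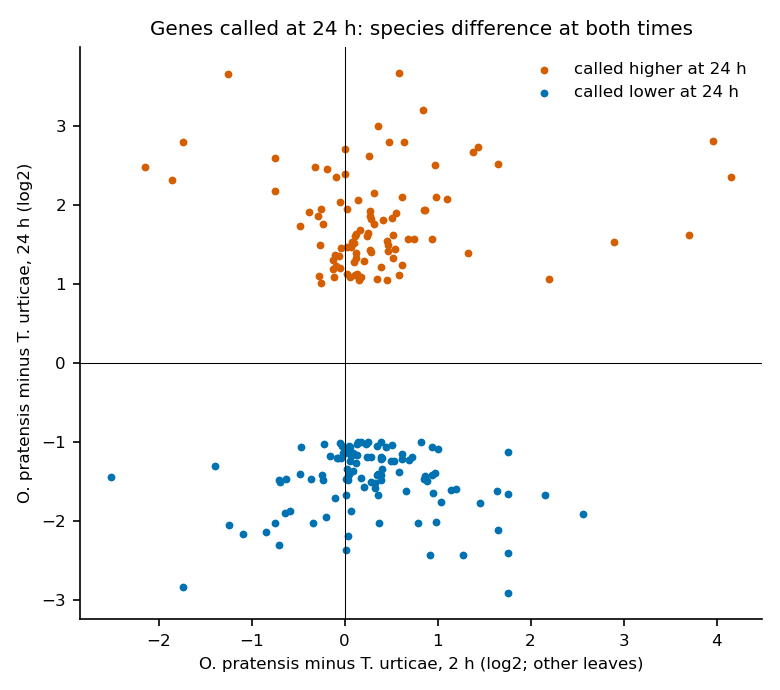
Log2 difference between O. pratensis and T. urticae leaves at 2 h (horizontal) against that at 24 h (vertical) for the 94 genes called higher and the 107 called lower at 24 h. Of the 107 lower genes 78 lie to the right of 0, and aox3 and GRMZM2G063917 are the ones called at both times.

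The species difference at 24 h minus that at 2 h was tested for each gene in the same fit. It was called higher in 8 genes (0.0358% of those tested) and lower in 157 (0.703%). Of the 157 genes, 36 were among those called lower at 24 h, where 0.479% of all genes tested were. Another count, of those called higher at 2 h, was 48 of the 157, where 0.680% of all genes tested were. The 157 genes had a median log2 difference of -0.70 at 24 h and 0.91 at 2 h. Of the 8 genes, 4 were among those called higher at 24 h, where 0.421% of all genes tested were. The test subtracts the 2 h difference from the 24 h difference on these same leaves, so that nothing is read from these counts and medians. Each leaf carried 400 mites at 2 h and 200 at 24 h, so that time and mite number cannot be told apart here.

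The named genes of this test were of different kinds. GRMZM2G108847 had 0.995, 1.6, 0.432 and 0.922 CPM in O. pratensis leaves and 1.34, 0.785, 0.939 and 0.871 CPM in T. urticae leaves at 2 h, with no difference called, and the levels given above at 24 h (change in the difference 2.09 ± 0.45 SE). MYBR41 had 37.4 to 53.2 CPM with O. pratensis, against 33.2 to 54.8 CPM with T. urticae at 2 h (change 1.42). GRMZM2G411766 had 13.7, 11.7, 11 and 15.8 CPM with O. pratensis, against 6.18, 5.62, 5.61 and 5.61 CPM with T. urticae at 24 h (change 1.31). For these 3 the difference was called at 24 h and not at 2 h. In the negative direction GRMZM2G103197 had 23.5, 43.9, 34.9 and 53.2 CPM with O. pratensis, against 8.04, 20.3, 9.88 and 16.1 CPM with T. urticae at 2 h, and 192, 239.7, 272 and 293 CPM with O. pratensis, against 621, 666, 729.5 and 467 CPM with T. urticae at 24 h, so that the order of the species turned round (change -2.84 ± 0.45 SE). GRMZM2G339645 and GRMZM2G171248 changed by -3.62 and -3.02, the second on levels under 1 CPM on average in both species at 24 h.

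WRKY53 had means of 2.71 ± 0.62 CPM in O. pratensis leaves and 1.32 ± 0.595 CPM in T. urticae leaves at 2 h (SD, n = 4 each), and the change in its species difference to 24 h was called (-2.80 ± 0.49 SE). Jasmonate signalling genes had a median log2 difference of 0.86 at 2 h, where 9 of 22 were called higher with O. pratensis and 0.680% of all genes tested were, and of -0.02 at 24 h, where none was. With only the 8 leaves of 2 h fitted, edgeR called 0 of the 22 at 2 h, with a median of 0.87, and when 1 of those leaves was left out it called 5 to 11, with 5 without O. pratensis replicate 2 or T. urticae replicate 1 or 3. DESeq2 called 10. The change was called lower in 4 of the 22, all TIFY genes, where 0.703% of all genes tested were. It was called in 2 with only the mite leaves fitted, and in 2 to 11 when 1 leaf was left out. Of the 4 genes, TIFY9 had 23.1, 35.7, 20.6 and 26.7 CPM with O. pratensis, against 4.11, 11.7, 4.07 and 10.5 CPM with T. urticae at 2 h, and 9.81, 8.17, 8.48 and 7.05 CPM with O. pratensis, against 8.59, 12.7, 8.87 and 11.2 CPM with T. urticae at 24 h. The leaves of the species did not overlap at 2 h and did at 24 h. Jasmonate synthesis genes had medians of 0.70 at 2 h and 0.01 at 24 h, and the cell wall list had medians of 0.16 at 2 h and -0.56 at 24 h.

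Wounded leaves stood on neither side of the comparison that chose the genes, although they shared its fit, and show how the genes behave in leaves damaged without mites. Of the 107 genes lower with O. pratensis, 47 were called higher 2 h after wounding (43.9%, where 17% of all genes were) and 4 lower (8.47% of all genes were). At 24 h after wounding 32 were called higher (29.9%, where 7.80% of all genes were) and 1 lower (0.810% of all genes were). Their median log2 change was 0.99 at 2 h and 1.01 at 24 h after wounding. Of the 94 genes higher with O. pratensis, 20 were called higher and 23 lower 2 h after wounding, with a median of -0.14, and 27 were called higher and 9 lower 24 h after it, with a median of 0.10. Control replicate 1, which stood apart for these 94 genes, moved those medians: without it they were 0.19 at 2 h and 0.71 at 24 h.

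Genes next to the limits differed little from each other, and those called were called in 6 to 10 of their 17 or 18 alternatives. Just inside the 2-fold limit, GRMZM2G110201 had 101 ± 14.8 CPM with O. pratensis, against 203 ± 34.7 CPM with T. urticae (SD, n = 4 each), and GRMZM2G039922 and GRMZM2G137435 also had log2 differences of -1.01 and -1.01. Just outside it, GRMZM2G120539 had 10.1 ± 1.01 CPM with O. pratensis, against 20.1 ± 3.3 CPM with T. urticae, and GRMZM2G177883 and GRMZM2G083538 had log2 differences of 0.99 and 0.99. On the limit for the adjusted p, GRMZM2G099642, GRMZM2G028677 and aox3 lay inside at 0.0097, 0.00956 and 0.00946, and GRMZM2G097468, GRMZM2G339645 and GRMZM5G812228 lay outside, at most at 0.0103 (edgeR).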

How the data were processed

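Libraries were made from poly(A) RNA with a stranded kit. The authors aligned the reads with STAR 2.5.2b to B73 RefGen_v3 and counted the uniquely mapped reads per gene with HTSeq 0.6.0, and the deposited counts are whole numbers that had not been normalized. Total counts lay between 14721310 and 32891100 in the 28 leaves, and intervals for such depths would cover counting error only. The table holds 39625 genes. Those with enough reads by edgeR's filterByExpr, 22339 in number, were fitted in edgeR 4.0.16 (R 4.3.3) with 1 mean for each of the 7 conditions, TMM scaling and the quasi-likelihood test, and p-values were adjusted over all tested genes by the Benjamini-Hochberg method. Log2 levels used a prior count of 2. SE is the log2 difference divided by the square root of F. Alternatives were DESeq2 1.42.0 with and without a prior, other size factors, other filters, only the samples compared, a replicate block, other thresholds and leaving out each leaf. The labels give replicate numbers shared by the groups, but do not say what a number means. The paper describes a randomized block design but does not say that a number is a block. Same-numbered leaves at 24 h deviated together with correlations of 0.24, 0.099, 0.20 and 0.059, which does not settle whether the numbers pair the leaves. The main fit left them unpaired, and the replicate block was run as an alternative. In chi-square tests all 28 pairs of the 8 libraries differed by more than sampling noise. On simulated counts for this comparison over 22339 genes, 96% of genes changed by 1.5 on the log2 scale and 99% of those changed by 2.5 were recovered, with 3 false calls. The changed genes were drawn only from those with a mean level of at least 2 CPM, and the spread simulated was that of the fit. These shares therefore do not cover genes with fewer reads.

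Called genes with an average log2 CPM of at least 1 and no overlap between leaves of the species came first. Of these, the text names the 12 with the greatest difference in each direction and the greatest with a gene name. Some but not all of the genes the study names are given. The text also names called members of gene lists, the 3 greatest changes between times in each direction, and genes next to the thresholds. Genes of those lists that were not called were added where they show a list, chosen after their values were seen. Names came from RefSeq's table for NAM-5.0, in which 19060 IDs matched and 2695 had a name, so no coordinates are printed. Lists were matched on symbols and synonyms. The genes and lists were chosen with earlier results of these data known.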

Additional observations from a re-analysis of the deposited data

Results flagged for a closer look

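By Dixon's test on the genes named, 1 leaf lay far from the other 3 of its group in 10 of 146 groups of 4 leaves, and chance sets about 1 in 20 such groups apart. O. pratensis replicate 4 had 16.8 CPM of GRMZM2G046848, O. pratensis replicate 1 had 26.7 CPM of MYBR41 (GRMZM2G150260), and O. pratensis replicate 2 had 4.56 CPM of BURP4 (GRMZM5G800586). T. urticae replicate 4 was the leaf set apart in 4 genes, with 1.16 CPM of HAK11 (GRMZM2G005040), 4.53 CPM of GRMZM2G099092, 17.7 CPM of GRMZM2G415529 and 17.3 CPM of GRMZM5G898274. In each of these 4 it was the T. urticae leaf nearest to the O. pratensis leaves. T. urticae replicate 3 had 31.9 CPM of GRMZM2G169947 and 128 CPM of chiI (GRMZM2G145461), and T. urticae replicate 1 had 6.18 CPM of GRMZM2G411766.

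The species difference differed between 24 h and 2 h, by edgeR's test of the change, in 8 genes with a higher and 157 genes with a lower difference at 24 h. Among the named genes the change was positive in GRMZM2G108847 (2.09 on the log2 scale), MYBR41 (GRMZM2G150260, 1.42) and GRMZM2G411766 (1.31). It was negative in WRKY53 (GRMZM2G125653, -2.80), GRMZM2G169947 (-2.60), GRMZM2G050216 (-2.40) and the phenylalanine ammonia-lyase gene GRMZM2G063917 (-2.09). Smaller negative changes were called in GRMZM2G039922 (-1.83), GRMZM2G042893 (-1.60), BURP4 (GRMZM5G800586, -1.48), GRMZM2G137435 (-1.39) and GRMZM2G110201 (-1.16). Mite number differed with time, and its part in these changes was not tested.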

How the results depend on the processing

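No called value changed direction in the alternatives run. For 24 h, counts of genes higher and lower with O. pratensis were 133 and 133 with DESeq2 without a prior, which shared 194 genes with edgeR's 201 (96.5% of them and 72.9% of DESeq2's 266), 129 and 126 with its prior, and 101 and 114 with a replicate block. They were 61 and 85 with only the 8 leaves fitted, 171 and 172 at an adjusted p of 0.05, 161 and 204 with no fold limit, and 0 and 1 with glmTreat. At 2 h the count of higher genes was 236 with DESeq2 without a prior and 1 with only the 8 leaves fitted, and that of lower genes was 1 with DESeq2. The change between times was called higher in 30 and 36 genes and lower in 330 and 331 with DESeq2 without and with its prior. With DESeq2's prior the median change after wounding of the 107 lower genes was 0.86 at 2 h and 0.78 at 24 h.

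Leaving out 1 leaf gave 46 to 87 higher and 58 to 117 lower genes at 24 h. The higher count moved by over 1.5 times without O. pratensis replicate 1 (58) or 4 (50) or T. urticae replicate 2 (51) or 3 (46), and the lower count without O. pratensis replicate 1 (58), 2 (67) or 4 (70) or T. urticae replicate 3 (62). At 2 h it gave 35 to 223 higher and 0 to 0 lower genes, moved by over 1.5 times without O. pratensis replicate 2 (58) or 4 (89) or T. urticae replicate 1 (45) or 3 (35). The change between times was then called higher in 1 to 16 and lower in 78 to 288 genes. The count of 8 moved without all but 3 of the 16 leaves, and the count of 157 without O. pratensis replicates 1 (97), 2 (78) and 4 (95) and T. urticae replicates 2 (86) and 4 (88) at 24 h, and without O. pratensis replicate 2 (93) and T. urticae replicates 1 (96), 2 (288) and 3 (81) at 2 h. Medians at 2 h then lay between 0.12 and 0.35 for the higher and between 0.092 and 0.26 for the lower genes. Those after wounding lay between -0.33 and, without control replicate 1, 0.19 at 2 h and 0.083 and 0.71 at 24 h for the higher genes, and between 0.90 and 1.16 and 0.89 and 1.02 for the lower genes.

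Without leaving out a leaf, 607 of 716 values of single genes kept their side of the thresholds, 76 lost and 33 gained a call. In leaving out leaves 464 of 576 kept it, 101 lost and 11 gained a call. Genes not called in the main fit are among those counted. List values moved little in 840 of 864 cases and in 808 of 864 when leaves were left out. The causes were not tested. The planned look at promoter motifs was not run, since no promoter sequences were used here. With 4 leaves a group, differences of under 2-fold and genes with few reads are the least certain. In the main fit p-values measure the spread between single leaves, estimated over the 28 leaves of all 7 conditions, wounded and control leaves included. Each mite species stood for 1 strain.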
